A study of Mus musculus with 9 samples.

Results

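The genes described here move calcium back into the store of the muscle cell, control that movement, or bind calcium. They are the 3 sarco/endoplasmic reticulum calcium pump (SERCA) genes Atp2a1, Atp2a2 and Atp2a3, the genes of the small pump inhibitors sarcolipin (Sln) and phospholamban (Pln), the calsequestrin genes Casq1 and Casq2, and the parvalbumin gene Pvalb. They were chosen by symbol and matched to the Ensembl identifiers of the deposited count files, where all 8 were found among 46078 genes listed for the cultured cells and 38293 listed for muscle tissue. RNA sequencing covered 9 mouse libraries of the C57BL/6 strain. Primary myoblasts (MB), the proliferating precursors of muscle fibers, gave 2 control libraries of cells that received PBS and 2 libraries of cells that received 10 mM sodium-L-lactate in PBS. Myotubes (MT), the multinucleated cells that MB form in differentiation medium, gave 2 control libraries after 3 days. Untreated gastrocnemius (GAS), a calf muscle made mostly of fast fibers, gave 3, from female mice that the study's methods place at 8 to 12 weeks of age. Comparing MT with MB asks how the genes differ along differentiation, and comparing lactate-treated with control MB asks whether added lactate moves cells in that direction. MT and MB here are cultures, not sorted cells, and GAS is whole tissue, so that fewer cells of a type and less RNA per cell cannot be told apart.

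When a muscle fiber is excited, calcium leaves the sarcoplasmic reticulum through the ryanodine receptor and triggers contraction, and the fiber relaxes when SERCA pumps return it at the cost of ATP. Atp2a1 encodes SERCA1, the pump of fast fibers, Atp2a2 encodes SERCA2, the pump of slow fibers and heart and of the endoplasmic reticulum of most cells, and Atp2a3 encodes SERCA3 of non-muscle cells such as blood and endothelial cells. Sarcolipin and phospholamban are short membrane peptides that lower pump activity, calsequestrins hold calcium inside the store, and parvalbumin binds it in the cytosol of fast fibers.

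Between 19307793 and 19941574 reads were counted in the GAS libraries and between 5198247 and 10839516 in the cultured ones. A count of 3, taken as the limit of detection, corresponds to at most 0.155 CPM (counts scaled to library size) in GAS and 0.277 to 0.577 CPM in the cultured libraries before composition scaling, and covers counting error only. The labels call the libraries biological replicates without naming separate animals or cultures, so p-values measure the spread between these libraries. By the test given below, all 6 markers of myotubes and fibers were called higher in MT than MB, and 1 of 5 myoblast markers, Pax7, was called lower. Over all genes tested, 11% were called higher and 6.86% lower. Among the other myoblast markers, Myf5, Myod1 and Mki67 were lower and Des was higher, without passing the test. MT replicate 1 stood apart: 28599 genes had a count there, against 15548 to 18156 in the other 8 libraries. Summed markers of fibroblasts reached 13539 CPM in MT replicate 1 and 1876 CPM in MT replicate 2, against 0.703 to 2.57 CPM in the MB libraries of both kinds and 379 to 476 CPM in GAS, and 2 of 5, Col1a1 and Dcn, were higher in MT. The part of these in the differences between MT and MB given here was not tested.

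The genes lie on 8 different chromosomes. In the mm10 assembly with the GENCODE M21 annotation, Atp2a1 (ENSMUSG00000030730) spans chr7:126445858-126463108 on the minus strand, Atp2a2 (ENSMUSG00000029467) chr5:122453513-122502225 on the minus strand and Atp2a3 (ENSMUSG00000020788) chr11:72961169-72993044 on the plus strand. Sln (ENSMUSG00000042045) spans chr9:53850164-53854560 and Pln (ENSMUSG00000038583) chr10:53337667-53345987, both on the plus strand. Casq1 (ENSMUSG00000007122) spans chr1:172209894-172219868 on the minus strand, Casq2 (ENSMUSG00000027861) chr3:102086415-102146514 on the plus strand and Pvalb (ENSMUSG00000005716) chr15:78191114-78206400 on the minus strand. Counts are per gene, over all annotated exons, so isoforms of a gene were not resolved.

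Promoters are among the stretches on which muscle factors act, and stretches further away were not searched. RefSeq promoter sequences on the same assembly (GRCm38.p6) were found for 6 of the 8 genes, all but Atp2a2 and Sln. The 250 bases before the RefSeq start were searched, and they are shown for the 4 genes of these that rose in MT and for Pvalb, which is abundant in GAS and near the limit of detection in MT. The RefSeq start of Atp2a1 lies 35 bases and that of Pln 19 bases inside the GENCODE gene, and these bases are not printed, while that of Casq1 lies 27 bases before it. Each is written 5′ to 3′ on the strand of its gene, and capitals mark matches, on either strand, to the E-box letters CANNTG, to which myogenic factors such as MyoD bind, and to TATAAA.
Atp2a1, chr7:126463109-126463323, minus strand: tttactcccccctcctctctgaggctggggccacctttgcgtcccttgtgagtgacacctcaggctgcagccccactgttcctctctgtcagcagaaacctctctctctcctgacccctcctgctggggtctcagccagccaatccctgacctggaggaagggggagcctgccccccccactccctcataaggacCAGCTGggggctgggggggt
Casq1, chr1:172219896-172220145, minus strand: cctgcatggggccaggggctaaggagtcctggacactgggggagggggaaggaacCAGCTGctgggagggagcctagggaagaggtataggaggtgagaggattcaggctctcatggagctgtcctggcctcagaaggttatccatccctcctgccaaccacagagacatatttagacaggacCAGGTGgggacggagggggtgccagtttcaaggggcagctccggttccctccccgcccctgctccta
Casq2, chr3:102086165-102086414, plus strand: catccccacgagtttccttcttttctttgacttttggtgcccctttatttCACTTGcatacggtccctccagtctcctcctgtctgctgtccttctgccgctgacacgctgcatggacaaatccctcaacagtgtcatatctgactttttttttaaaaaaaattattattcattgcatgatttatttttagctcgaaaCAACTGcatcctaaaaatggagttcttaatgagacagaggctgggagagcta
Pln, chr10:53337436-53337666, plus strand: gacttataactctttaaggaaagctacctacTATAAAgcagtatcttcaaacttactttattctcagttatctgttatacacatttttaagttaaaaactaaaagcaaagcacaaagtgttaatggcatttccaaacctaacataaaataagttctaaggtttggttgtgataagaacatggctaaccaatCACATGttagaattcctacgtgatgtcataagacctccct
Pvalb, chr15:78206401-78206650, minus strand: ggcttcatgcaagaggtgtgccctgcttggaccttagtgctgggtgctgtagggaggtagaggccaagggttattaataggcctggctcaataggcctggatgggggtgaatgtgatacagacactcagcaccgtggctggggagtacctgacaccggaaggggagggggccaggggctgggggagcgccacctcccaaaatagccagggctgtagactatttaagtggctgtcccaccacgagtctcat
Atp2a1 had 1 E-box match, starting 55 bases before the RefSeq start, from which all distances here are counted, and Casq1 had 2, at 195 and 67 bases. The letters CAGCTG, a palindromic form that is part of CANNTG, made up the match of Atp2a1 and the distal match of Casq1. Casq2 had 2 E-box matches, at 200 and 52 bases, and Pln 1 at 59 bases beside a TATAAA match at 219 bases. Neither Pvalb nor Atp2a3 had a match to CANNTG or TATAAA. None of the 6 held 1 strict form of a MEF2-type site, CTA and TAG with any 4 bases between them. Other forms of the site were not searched, such as those with a first T, ttatttttag in Casq2 and ttattaatag in Pvalb. Such letters occur widely: of 32851 promoters of the same length, 66.2% held CANNTG, 13% CAGCTG, 12.4% TATAAA and 3.2% the MEF2-type letters. Base composition differed widely among the genes, from 32.8% G and C in Pln and 41.6% in Casq2 to 58.4% in Pvalb, 61.6% in Casq1, 64.0% in Atp2a1 and 66.8% in Atp2a3, around a median of 52.4% over all promoters. The matches describe letters and say nothing about binding.

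In MT against MB, 5 genes rose: the fast pump Atp2a1, both pump inhibitors Sln and Pln, and both calsequestrins Casq1 and Casq2. Atp2a2 was higher in both MT libraries but did not pass the test, and Atp2a3 and Pvalb had too few counts to enter it. The test was edgeR's quasi-likelihood test with Benjamini-Hochberg adjustment over all 12921 genes tested, and a call needs an adjusted p under 0.05 and an absolute log2 fold change (log2FC) over 0.5. Of the 8 genes, 6 were tested, 5 were called higher and 0 lower, against a background in which 17.9% of genes were called, 11% higher and 6.86% lower. At a nominal p under 0.01, the study's looser criterion, the same 5 genes passed and 18.7% of all genes did. The CPM of the MT and MB libraries did not overlap for 6 of 6 tested genes, all higher in MT, where 32.9% of all genes tested were higher without overlap and 29.2% lower. Their median log2FC was 5.87, beside 0.07 over all genes tested. Sln, Pln and Casq1 passed the filter on low counts only through their MT libraries, so a difference was built into their entry and these counts and the median are a description.

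**Figure D1:**
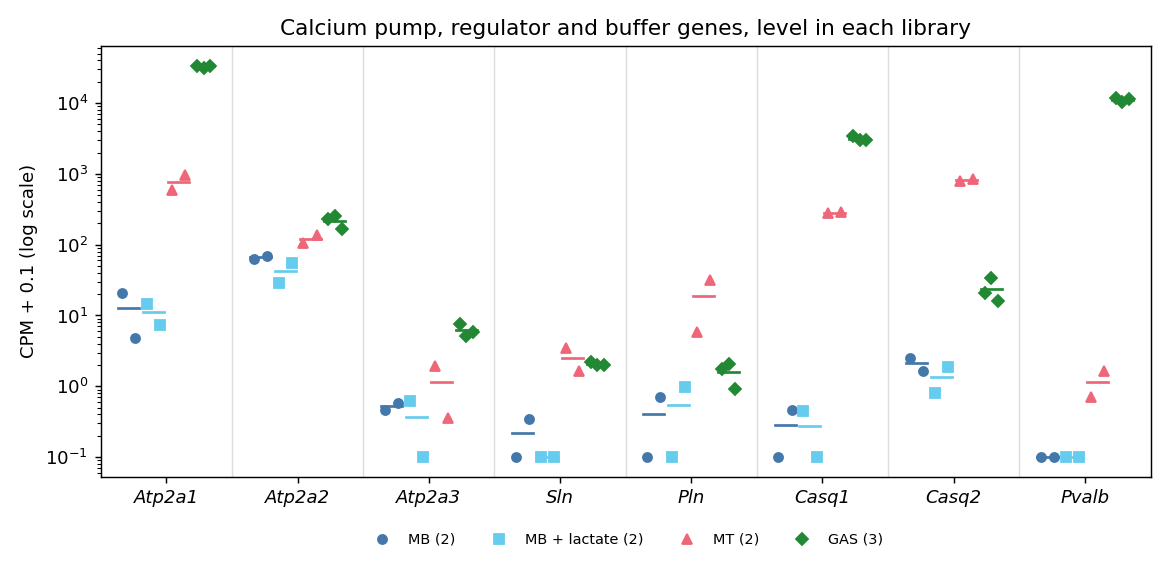
Level of each gene in each library, in TMM-scaled CPM plus 0.1 on a logarithmic axis, with lines at the group means and 2 libraries per cultured group and 3 for GAS. Atp2a1, Casq1 and Casq2 lie at 282 to 955 CPM in MT and at 20.6 CPM or less in MB, Atp2a2 spans 28.5 to 255 CPM over all libraries, Pvalb is at 10265 CPM or more in GAS and at 1.53 CPM or less in culture, and Casq2 is lower in GAS than in MT; GAS was scaled apart from the cultured libraries and was not tested against them.

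Among the pumps, Atp2a1 had 8058 and 7509 counts in MT replicates 1 and 2, and 168 and 39 counts in MB. On the CPM scale the MT libraries stood at 600.0 and 955 and the MB libraries at 20.6 and 4.70. The lowest MT library thus lay far above the highest MB library, while the MB libraries differed from each other more than the MT ones in proportion. The log2FC was 5.88 (SE 0.81, adjusted p = 0.00109, edgeR quasi-likelihood test), and 7.32 without MB replicate 1 or 5.08 without MB replicate 2. The higher MB library was also the higher for Myog, a factor that starts differentiation, with 85.0 against 37.1 CPM, and for the summed fast fiber genes, with 82.5 against 38.3 CPM, and the part of this in the Atp2a1 value was not tested. Exons of Atp2a1 overlap those of Rabep2 on the opposite strand over 763 bases. Rabep2 had 476 and 259 counts in MT and 299 and 197 in MB, and since the strand setting of the counting is not given in the sources used here, how reads there were split between the genes is uncertain.

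Atp2a2 had 1426 and 1077 counts in MT and 516 and 576 in MB, or 106 and 137 CPM against 63.2 and 69.4 CPM. Both MT libraries were above both MB libraries. The log2FC of 0.87 (SE 0.41) had an unadjusted p of 0.0596 and an adjusted p of 0.172 by edgeR's quasi-likelihood test. Its adjusted p lay between 0.127 and 0.580 over the alternatives tried, so that the housekeeping pump was not called under any of them. In MB it was the pump gene with the highest level per exonic length, at 10.9 ± 0.719 RPKM (CPM divided by the exonic length in kilobases; SD, n = 2), against 3.64 ± 3.23 RPKM for Atp2a1.

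Atp2a3 was near the limit of detection in culture, with 25 and 2 counts in MT, 3 and 4 in MB and 3 and 0 in lactate-treated MB. Only MT replicate 1 stood out, and MT replicate 2, with 0.254 CPM, lay below both MB libraries. Pooled over replicates, the MT counts were 2.98 times those of MB after scaling (95% exact counting interval 1.27 to 8.11), which rests on that 1 library. With no filter on low counts its log2FC was 1.30 with an adjusted p of 0.817 in the edgeR quasi-likelihood test. In the same library, summed markers of immune cells and platelets stood at 31.6 CPM against 9.92 in MT replicate 2, and those of endothelial cells at 13.2 against 0.254 CPM. Ptprc, which marks white blood cells, stood at 4.47 CPM there and at 0 in the other 5 cultured libraries, and the part of such cells in the Atp2a3 counts was not tested.

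Of the inhibitors, Sln had 45 and 12 counts in MT, 0 and 2 in MB and 0 in both lactate-treated libraries. On the CPM scale this was 3.35 and 1.53 in MT against 0 and 0.241 in MB. The MT libraries were higher without overlap. The fitted log2FC was 4.25 (SE 1.25, adjusted p = 0.0400, edgeR quasi-likelihood test), and the pooled MT counts were 22.0 times those of MB with a counting interval of 5.82 to 186. Only 2 MB counts stand behind this call, and it depends on the setting. The adjusted p ranged from 0.0337 to 0.740 over the alternatives, and the call was lost with no filter on low counts (0.557), with all 6 cultured libraries in 1 edgeR fit without (0.0603) and with (0.0960) a replicate block, with a block of crossed replicate numbers (0.0626), without MB replicate 1 (0.740, log2FC 3.24) and without MB replicate 2 (0.394, log2FC 7.55), while without MT replicate 1 the gene was not tested.

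Pln had 77 and 250 counts in MT, 0 and 5 in MB and 0 and 5 in lactate-treated MB. The MT libraries stood at 5.73 and 31.8 CPM and the MB libraries at 0 and 0.603 CPM, without overlap. Unlike Atp2a3 and Sln, Pln was higher in MT replicate 2 than in MT replicate 1. The log2FC was 5.86 (SE 1.18, adjusted p = 0.00774, edgeR quasi-likelihood test), the pooled ratio was 50.5 (counting interval 21.4 to 157), and the call held in every alternative that tested the gene. With at least 10 counts required in every library, Pln was not tested. It passed the main filter only through its MT libraries, so a difference was built into its entry. Its size moved with single libraries: the log2FC was 4.13 without MT replicate 2, 6.61 without MT replicate 1, 4.87 without MB replicate 1 and 10.46 without MB replicate 2. Pln shares 141 exonic bases with Cep85l on the opposite strand, and Cep85l had 99 and 37 counts in MT and 18 and 34 in MB.

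Of the buffers, Casq1, the calsequestrin that predominates in fast fibers, had 3781 and 2252 counts in MT against 0 and 3 in MB. Its CPM values were 282 and 286 in MT, the smallest gap in proportion between MT replicates among the genes called, and 0 and 0.362 in MB. The fitted log2FC of 10.52 (SE 0.84, adjusted p = 8.7e-05, edgeR quasi-likelihood test) was the largest of the 8 genes. Because 3 MB counts stand behind it, the ratio of pooled counts is known only as 1554 with a counting interval of 532 to 7539. The log2FC was 9.53 without MB replicate 1 and 14.40 without MB replicate 2. The latter value, like those of Sln and Pln without that library, is set against an MB library with 0 counts and depends on the prior count of the fit. An antisense gene, Gm17224, overlaps 156 exonic bases of Casq1 and had 0 counts in every cultured library.

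Casq2, the calsequestrin best known from heart and slow fibers, had 10693 and 6634 counts in MT and 20 and 13 in MB, and it was the most abundant of the 8 genes in both MT libraries by RPKM. It stood at 796 and 844 CPM in MT against 2.45 and 1.57 CPM in MB, with no overlap. The log2FC was 8.65 (SE 0.69, adjusted p = 8.7e-05, edgeR quasi-likelihood test). With 33 pooled MB counts the pooled ratio was 406 with a counting interval of 289 to 590, against 58.1 (50.7 to 67.0) for Atp2a1. These intervals cover counting error only and not the spread between libraries. Leaving out MB replicate 1 or 2 gave a log2FC of 8.98 or 8.22 for Casq2 and of 7.32 or 5.08 for Atp2a1.

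Pvalb, the cytosolic buffer, had 8 and 12 counts in MT and 0 in each of the 4 MB libraries. The MT level of 1.06 ± 0.658 CPM (SD, n = 2) was at least 2.89-fold higher than MB when the MB libraries were set to 3 counts each. The gene did not pass the filter, and with no filter its adjusted p was 0.557 in the edgeR quasi-likelihood test.

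**Figure D2:**
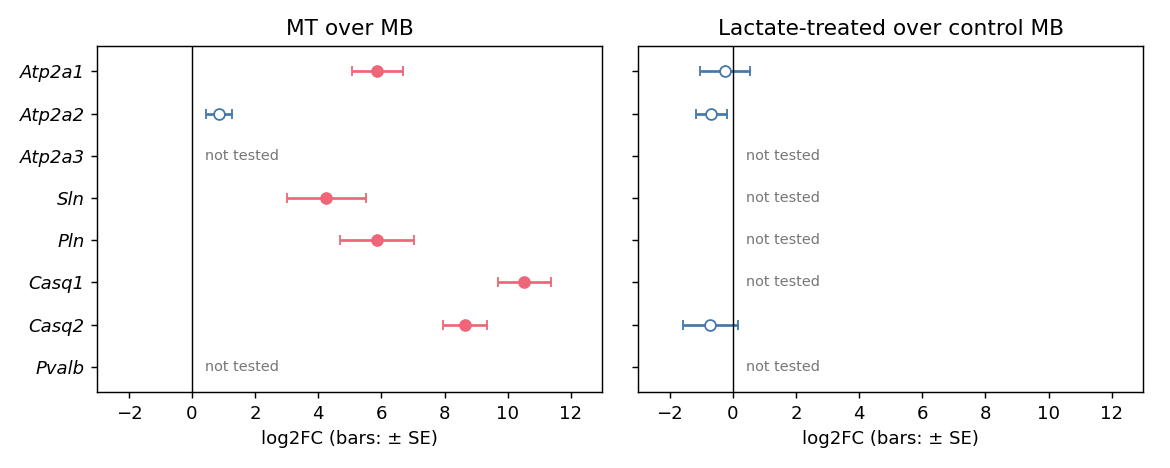
Log2FC of MT over MB (left) and of lactate-treated over control MB (right) from edgeR's quasi-likelihood fits, with bars of ± SE. Filled red points mark the 5 genes past the threshold, from 4.25 for Sln to 10.52 for Casq1, open points mark genes tested but not called, and genes below the count filter are written as not tested.

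Adding lactate to MB changed no gene past the threshold, among the 8 or elsewhere. Of the 8 genes, 3 passed the filter and 0 were called by edgeR's quasi-likelihood test, against 0.0% of 11804 genes tested, at the adjusted as at the nominal criterion. The nominal result differs from the paper, which reports a small group of higher and lower genes at that criterion with edgeR. It also depends on the setting: with a replicate block, 13 genes passed the nominal criterion, none of them among the 8. Leaving out either control library raised the number past this criterion too, in fits with only 1 control library. The reason for the difference from the paper was not tested. An unadjusted p under 0.05 was found for 5 genes in all by edgeR and for 3 by DESeq2, which also called 0 after adjustment. The control MB libraries are those of the MT comparison, so both comparisons share them. Of the 3 genes tested, 1 did not overlap between the groups and was lower with lactate, where 6.84% of all genes were lower and 4.28% higher without overlap. The median log2FC of the 3 was -0.68, beside 0.00 over all genes tested.

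That gene was Atp2a2, with 162 and 313 counts, or 28.5 and 55.6 CPM, in lactate-treated MB against 63.2 and 69.4 CPM in control MB. Both treated libraries lay below both controls, and the treated libraries lay further apart than the higher of them lay from the nearer control. The log2FC of -0.68 (SE 0.48) had an unadjusted p of 0.205 and an adjusted p of 1.00 by edgeR's quasi-likelihood test. Without the lower treated library, replicate 1, it was -0.24, and without treated replicate 2 it was -1.29. With a replicate block, which takes same-numbered libraries as pairs, the log2FC was -0.76 (SE 0.32, unadjusted p = 0.0380, edgeR quasi-likelihood test). The gene was not called there either.

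Atp2a1 stood at 14.6 and 7.29 CPM with lactate, inside the range of the controls at 20.6 and 4.70 CPM. Its log2FC was -0.25 (SE 0.78, unadjusted p = 0.759, adjusted p = 1.00, edgeR quasi-likelihood test). The sign rests on single libraries, since it was 0.14 without treated replicate 2 and 1.27 without control replicate 1. Casq2 had 4 and 10 counts with lactate, or 0.703 and 1.78 CPM, which overlaps the controls at 2.45 and 1.57 CPM. Its log2FC was -0.71 (SE 0.87, unadjusted p = 0.444, adjusted p = 1.00, edgeR quasi-likelihood test). The other 5 genes had at most 5 counts in any lactate-treated library: Sln and Pvalb had 0 in both, Atp2a3 3 and 0, Pln 0 and 5, and Casq1 2 and 0. At this depth a fall or a small rise in these 5 was not detectable, and no fold is given for genes at or under the limit in both groups.

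In GAS the genes spread over a range far wider than in culture. Pvalb and Atp2a1 were among the most abundant transcripts of the muscle by RPKM, ranking 8 and 10 among 15703 protein-coding genes with counts, and Casq1 ranked 29. Pvalb had 10790 ± 820 RPKM, Atp2a1 9467 ± 384 RPKM, Casq1 1610 ± 133 RPKM, Atp2a2 35.7 ± 7.31 RPKM and Casq2 8.54 ± 3.31 RPKM (SD, n = 3). The remaining 3 were low, with 1.47 ± 0.0923 RPKM for Sln, 1.15 ± 0.237 for Atp2a3 and 0.541 ± 0.215 for Pln. In this order, from Pvalb down to Pln, the ranges over replicates did not overlap for any of the 7 pairs of neighbours, also without TMM scaling and when each replicate was left out. Per replicate, Atp2a1 had 657708, 620398 and 654060 counts and Pvalb 233956, 202754 and 222597. Both were high in all 3 libraries, with 31409 to 33948 CPM for Atp2a1 and 10265 to 11878 CPM for Pvalb. Casq1 had 67758, 58670 and 58051 counts, while Sln had only 41, 37 and 36 and Pln 33, 39 and 16. Sln and Pln therefore lay above the limit of 3 counts in each GAS library and yet ranked 7977 and 10255 among protein-coding genes.

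The order in MT was different. Casq2 led with 300 ± 12.3 RPKM (SD, n = 2), followed by Atp2a1 at 224 ± 72.2, Casq1 at 146 ± 1.77, Atp2a2 at 20.0 ± 3.58 and Pln at 6.80 ± 6.68 RPKM. Sln, at 1.85 ± 0.979 RPKM, Pvalb, at 1.02 ± 0.632, and Atp2a3, at 0.200 ± 0.215, came last. Ranges were separate for 5 of the 7 pairs of neighbours, and those of Pln and Sln and of Sln and Pvalb overlapped. In MB, Atp2a2 led with 10.9 ± 0.719 RPKM, followed by Atp2a1 and, at 0.734 ± 0.229 RPKM, Casq2, with separate ranges for 4 of 7 pairs, and in lactate-treated MB Atp2a2 led with 6.92 ± 3.16 RPKM, with separate ranges for 2 of 7.

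Library preparation started from poly(A) RNA for GAS and followed Smart-seq2 for cells in culture, and levels of GAS and cultured cells were not tested against each other. Ratios within a library do not carry library size, although they can carry differences in protocol. Of the summed RPKM of the SERCA genes, Atp2a1 made up 99.6, 99.5 and 99.7% in GAS and 90.6 and 92.4% in MT. It made up 36.1 and 10.5% in control MB and 46.7 and 18.6% in lactate-treated MB. Atp2a1 was thus the main pump transcript in every GAS and MT library and was below Atp2a2 in all 4 MB libraries, which varied widely. Atp2a2 held most of the remainder, with 9.17 and 7.58% in MT and 0.282 to 0.462% in GAS.

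Among the calsequestrins, Casq2 made up 66.9 and 67.7% of the summed calsequestrin RPKM in MT, so that MT held 2.02 and 2.10 Casq2 transcripts per Casq1 transcript on this scale. In GAS it made up 0.424, 0.797 and 0.378%. The 2 MT libraries nearly coincided, and every GAS library was below both. In MB the share rested on few counts and ran from 75.6 to 100% in control and from 58.8 to 100% in lactate-treated libraries.

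Sln and Pln transcripts were scarce beside pump transcripts in GAS, at 0.0227, 0.0235 and 0.0176 RPKM of both per 100 RPKM of SERCA genes, and stood at 2.43 and 4.27 in MT. Both MT values lay above all GAS values. This ratio leaves out Mrln, the gene of another small pump inhibitor, with a mean of 41.7 RPKM in GAS and 10.0 RPKM in MT. In control MB the ratio was 0 and 3.12, resting on 7 counts in all. Calsequestrin RPKM per SERCA RPKM was 2.29 and 1.53 in MT, 0.158 to 0.184 in GAS and 0.0487 to 0.0589 in the 4 MB libraries. Pvalb RPKM per SERCA RPKM was 1.09 to 1.18 in GAS and 0.00301 and 0.00493 in MT. On this scale the cytosolic buffer was slightly above the pumps in each GAS library, and the luminal buffers were above the pumps in both MT libraries. With the length of the longest transcript in place of all exons, no share of Atp2a1 or Casq2 moved beyond the spread between replicates.

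**Figure D3:**
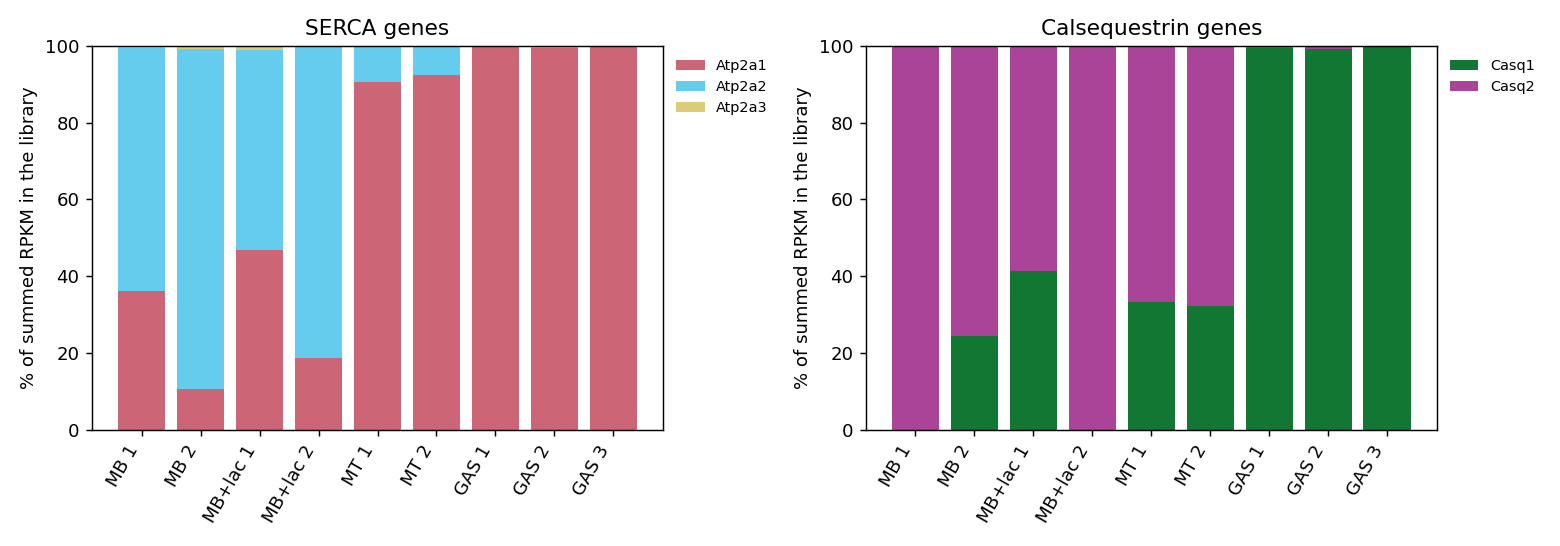
Share of each SERCA gene (left) and each calsequestrin gene (right) in the summed RPKM of its family, as stacked bars for each library. Atp2a1 takes 90.6 to 99.7% in MT and GAS and 10.5 to 46.7% in MB, and Casq2 takes 66.9 and 67.7% in MT against at most 0.797% in GAS, while the calsequestrin shares in MB rest on few counts.

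The 3 GAS replicates did not vary alike for all genes. Atp2a2 stood at 105, 118 and 77.5% of its mean in replicates 1, 2 and 3, Casq2 at 88.0, 143 and 68.7%, and Pln at 112, 132 and 55.6%. These 3 genes were highest in replicate 2 and lowest in replicate 3. The other 5 were not: Atp2a1 stood at 101, 95.4 and 103% and Pvalb at 106, 91.4 and 103%. Sln stood at 107, 96.5 and 96.3%, Casq1 at 110, 94.6 and 95.9% and Atp2a3 at 122, 82.2 and 95.4%. The order of replicate 2 highest and replicate 3 lowest also held for 6 of 6 slow fiber genes. Among these, Myh7, the slow myosin heavy chain, stood at 105, 123 and 71.9%. The order held for 2 of 8 fast fiber genes and for 20.1% of 9874 genes with a mean RPKM over 1. This order was noticed after the values were seen and carries no test, and the part of fiber composition in it was not tested.

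**Figure D4:**
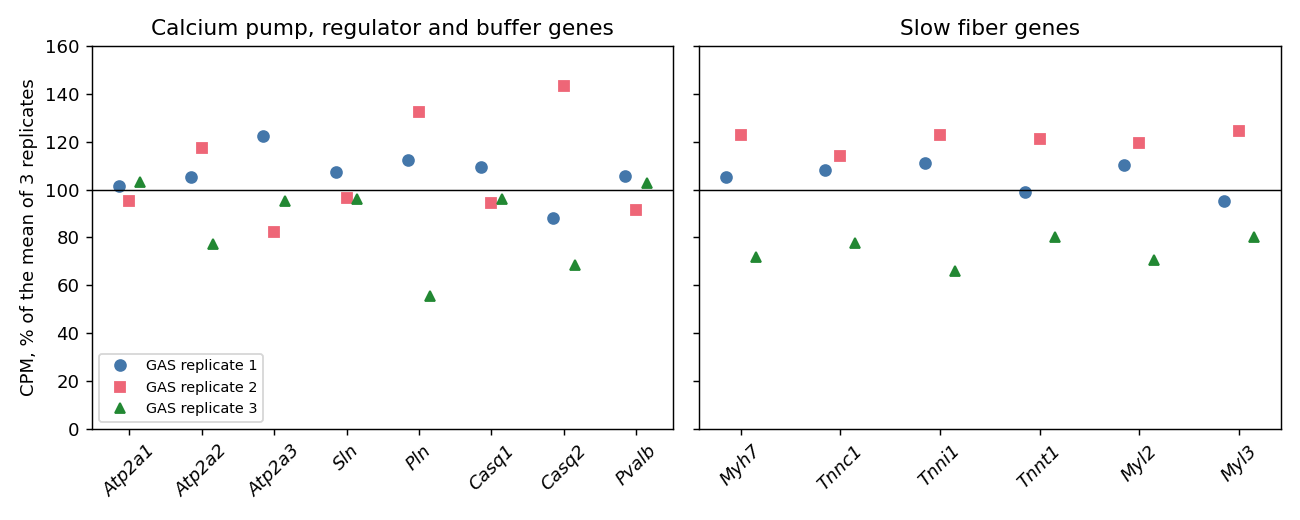
CPM of each gene in the 3 GAS replicates as a percentage of the mean of the 3, for the 8 genes (left) and the 6 slow fiber genes (right), with a line at the mean. Atp2a2, Pln and Casq2 share with all 6 slow fiber genes the order of replicate 2 highest and replicate 3 lowest, while Atp2a1 and Pvalb stay within 91.4 and 106% of their means.

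Other genes of calcium handling were counted from lists in the MT against MB test. Of the other small membrane regulators of SERCA, 2 of 4 (Mrln and Strit1) were found in the files and 1 was tested. Mrln, which encodes myoregulin, an inhibitor like sarcolipin, rose from 0.123 and 0.362 CPM in MB to 5.06 and 18.6 CPM in MT, with a log2FC of 5.50 (SE 1.03, adjusted p = 0.00551, edgeR quasi-likelihood test). Its MB libraries lay at or under the limit of 3 counts, and it passed the low-count filter only through MT. A difference was thus built into its entry, and these values are a description. Of 12 genes of calcium release and of the lumen of the sarcoplasmic reticulum, all tested, 7 rose and 0 fell, beside 11% and 6.86% of all genes tested, with a median log2FC of 4.85 beside 0.07. Of the 12, 8 passed the low-count filter between the MB groups, so entry into the test rested on MT for genes such as Trdn and the counts are a description. Trdn, whose product triadin anchors calsequestrin at the ryanodine receptor, had 1 MB count, and its pooled ratio of 2029 had a counting interval of 364 to 80162.

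Of 10 buffers and chaperones of the endoplasmic reticulum tested, 1 was higher and 0 lower, a share near that over all genes, with a median log2FC of 0.68. The higher one was Rcn3, a reticulocalbin, with a log2FC of 3.51 (SE 0.56, adjusted p = 0.00243, edgeR quasi-likelihood test). No gene passed among 5 of store-operated calcium entry (median 0.65), 3 IP3 receptors (median -0.30) and 6 of mitochondrial calcium uptake (median 0.64). The largest differences in these lists were 1.57 for Stim1, the calcium sensor of the store, -0.76 for Itpr3 and 0.97 for Micu3, with edgeR adjusted p of 0.0767, 0.319 and 0.499.

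Over all genes tested, 11% were called higher and 6.86% lower. Among other calcium pumps and exchangers, 5 of 9 were tested and 2 were higher (median 0.46), with Atp2b4, a plasma membrane pump, at a pooled ratio of 36.8 on 3 MB counts (counting interval 12.4 to 181). Atp2b4 passed the low-count filter only through MT, so a difference was built into its entry. Of 12 other genes of the EF-hand protein family, 8 were tested, with a median of -0.42. S100a1, a regulator of SERCA and the ryanodine receptor in muscle, was higher by a log2FC of 2.69 (adjusted p = 0.00635, edgeR), and S100a10, an annexin partner, was lower with -1.83 (adjusted p = 0.0314, edgeR). Fast fiber genes were higher in 8 of 8 (median 7.96, or 7.04 with the 3 genes at 0 in MB set to their lower bound). Myh4, a fast myosin heavy chain at 0 in MB, was at least 366-fold higher. Slow fiber genes were higher in 5 of 5 tested of 6 (median 7.63, or 6.74 with 1 gene at its bound), and Myl2, at 0 in MB, was at least 107-fold higher. As in the release list, some of these genes, of which 4 fast and 3 slow ones passed the filter between the MB groups, were tested only through their MT counts. Lactate moved 0 genes past the threshold in any of these lists.

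Genes whose profiles over the 9 libraries were most like those of the 8 were sought among 11340 protein-coding genes by Pearson's r of log2(CPM + 1). The points share 4 groups and 2 protocols, so that r mainly reflects group levels and is a description. Atp2a1 was nearest to Pfkm, the muscle phosphofructokinase (0.998), and Ganc (0.997), Casq1 to Mpp3 and Ano5 (both 0.999), and Pvalb to Asb16 (0.9999) and Tcea3 (0.9997). Casq2 was nearest to Cyfip2 (0.998) and Ms4a4d (0.993), Pln to Fst, which encodes follistatin (0.993), and Ackr4 (0.976), and Sln to Igtp (0.997) and Mfap5 (0.992). Atp2a2 was nearest to Exd2 (0.982) and Sh3pxd2a (0.979), the lowest leading value of the 8, and Atp2a3 to Tfcp2l1 (0.990) and Macrod2 (0.989).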

How the data were processed

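RNA of 3 GAS samples (poly(A) libraries) and of 2 MT, 2 control MB and 2 lactate-treated MB samples (Smart-seq2 libraries, total RNA) was sequenced. The authors deposited raw counts per gene without normalization. The submitters' processing notes name Trim Galore 0.6.6, FastQC 0.11.0, HISAT2 2.2.1, Subread 2.0.1 (featureCounts) and the mm10 build. The annotation release, the strand setting and the treatment of reads with several alignments are not given in the sources used here. Each sample was assigned to its group by its title. The members and the gene lists were chosen with earlier results of these data known.

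Gene names, positions and exonic lengths (union of exons) came from GENCODE M21, and promoters from RefSeq on the same assembly. CPM values were scaled with TMM factors, separately for GAS and for cultured cells, and divided by exonic length for RPKM. Each comparison (MT over MB, lactate-treated over control MB) was fitted on its own 4 libraries in edgeR, after filterByExpr and TMM, by the quasi-likelihood method without a replicate block, and p-values were adjusted after Benjamini and Hochberg. A call needed an adjusted p under 0.05 and an absolute log2FC over 0.5. SE is the absolute log2FC divided by the square root of F. Both fits were tested on simulated data. Counting intervals (95%) are exact, conditional on the sum of the pooled counts, and like the limit of 3 counts cover counting error only.

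All 8 members were named, and from each context list the gene with the largest absolute log2FC among those tested, with at most 2 more beside a member's value. Likeness used genes with a mean of at least 5 CPM in at least 1 group. Marker lists not described in the report gave, for MT against MB, 1 higher of 3 tested for smooth muscle, 0 called of 2 tested for Schwann cells and 2 higher of 2 tested for immune cells and platelets, and no gene of the endothelial and adipocyte lists was tested. Of all genes tested, 11% were called higher and 6.86% lower.

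Alternatives were RLE factors, the DESeq2 Wald test, a minimum of 10 counts in each library, no low-count filter, the replicate block, all 6 cultured libraries in 1 fit with and without the block, ribosomal RNA genes left out, a prior count of 2, other thresholds, CPM without TMM, the longest transcript as gene length, and each library left out. Software was edgeR 4.0.16, limma 3.58.1 and DESeq2 1.42.0 under R 4.3.3, and scipy 1.17.1, pandas 2.3.3, numpy 2.4.6 and matplotlib 3.10.9 under Python 3.11.15.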

Additional observations from a re-analysis of the deposited data

How the results depend on the processing

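For MT against MB, the number of members called stayed at 4 or 5 in all alternatives but 1: with at least 10 counts in every library, only 3 could be tested and 2 were called, and 1444 genes were called in all. When each library was left out in turn, 4 to 5 members and 1232 to 4921 genes were called (1232 without MT replicate 1 and 4921 without MT replicate 2, against 2312). DESeq2 called 3021 genes. Sln was the only member to lose its call in a fit that tested it, in 6 alternatives. For lactate, 0 members were called in every alternative, and 0 to 2 genes when libraries were left out (2 without MB replicate 1). The log2FC of Atp2a1 ran from -0.95 without MB replicate 2 to 0.14 without MB_lac replicate 2 and 1.27 without MB replicate 1, against -0.25, and the cause was not tested. In all, 110 log2FC values of members kept their direction and side of the threshold, 6 lost the call and 2 reversed. Without TMM factors, mean CPM in MT was 318 for Casq1 and 915 for Casq2. With no filter on low counts the median log2FC of all genes shifted to 1.82. The labels number 2 replicates per group without saying what a number shares, and the main fits did not take the numbers as pairs. Deviations of same-numbered libraries correlated at -0.13 for MT and MB (12921 genes). For lactate they correlated at 0.70 (11804 genes), so same-numbered libraries deviated together and the main lactate fit left this shared spread in its error. An unadjusted p under 0.05 was found by edgeR for 166 genes with the block for lactate, against 5 without it. With the replicate block, 5 members and 2271 genes were called for MT against MB, Sln with an adjusted p of 0.0496 by edgeR, and 0 for lactate, where Atp2a2 had a log2FC of -0.76 (unadjusted p = 0.0380, edgeR). With crossed numbers, an alternative chosen after seeing the data, 4 members and 2059 genes were called for MT against MB. Genes with few counts in MB, foremost Sln, Pln and Casq1, are limited by depth, as are 5 of the 8 genes in lactate-treated MB.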
